A study of Mus musculus with 72 samples.

Results

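The suprachiasmatic nucleus (SCN) of mice fed a methionine- and choline-deficient (MCD) diet was compared with that of mice on the control diet at circadian time (CT) 0. The libraries were chosen by their labels: 6 of the 72 libraries of the series came from SCN at this time, 3 on the MCD diet and 3 on its isocaloric control. All mice were C57BL/6, aged 8 to 12 weeks at purchase per the protocol, housed singly and fed freely for 11 days. A 12 h light and 12 h dark cycle was kept for 10 days, and the next day was spent in constant darkness, on which CT0 was the first of 6 killing times set 4 h apart. Each diet was represented by 2 males (replicates 1 and 2) and 1 female (replicate 3), with 1 mouse per replicate per the series' design text. The protocol text names male mice only, so the sample labels were followed. The SCN was cut by laser from 23 stained sections of 25 µm, so every library holds the RNA of neurons, glia and vessels together. In such bulk samples fewer cells of a type and less RNA per cell cannot be told apart.

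The SCN is the small hypothalamic nucleus that sets the daily timing of the body. In its neurons the proteins CLOCK and BMAL1 switch on the Period and Cryptochrome genes, whose products return to repress them, and Per1 is also driven by calcium and cyclic AMP signalling through the factor CREB, as are many immediate-early genes, which answer neuronal activity within a short time. Methionine is the source of S-adenosylmethionine, the methyl donor of most cellular methylation reactions, and choline feeds methyl groups into the same cycle and is the head group of phosphatidylcholine.

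Total gene counts were 27.5 to 60.35 M in the control libraries and 50.16 to 58.28 M in the MCD libraries, with control replicate 2 the shallowest. Levels are given as CPM, read counts scaled to library size and composition, and allow a gene to be compared between libraries but not with another gene, since they are not divided by gene length. The labelled tissue was checked against its defining neuropeptides and factors: Avp stood at 345.5 to 496.9 CPM, Vip at 701.5 to 1486 CPM and Six6 at 208 to 244 CPM over the 6 libraries. Xist, which coats the inactive X chromosome, had levels of 977.1 and 469.7 CPM in the replicates labelled female and of 0.988 to 4.633 CPM in those labelled male. The Y-linked gene Ddx3y was at 54.25 to 86.93 CPM in the males, at 3.161 CPM in control replicate 3 and at 0 CPM in MCD replicate 3. No pair of replicates agreed within sampling noise.

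A single gene passed the test for diet at CT0. Fosl2, which encodes the AP-1 transcription factor FRA-2, stood at 20.7, 14.7 and 21.8 CPM in the 3 control libraries and at 65.0, 60.9 and 61.2 CPM in the 3 MCD libraries. The MCD libraries all lay above the control libraries and close to each other, and control replicate 2 was the lowest of all. Fosl2 rose by 1.70 ± 0.27 (SE) on the log2 scale, with an adjusted p of 0.0084 from edgeR's quasi-likelihood test with Benjamini-Hochberg adjustment over the 15759 genes tested. It was the 1 gene called, or 0.00635% of those tested, and 747 genes had an unadjusted p under 0.05. The edgeR call was lost without control replicate 2 (log2 change 1.53, adjusted p = 0.302) and without MCD replicate 1 (1.69, adjusted p = 0.0518), and was kept without each of the other 4 libraries. The median log2 change over all genes was -0.0041, and 49.1% of the genes had a positive one, as the plot of change against level shows.

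**Figure D1:**
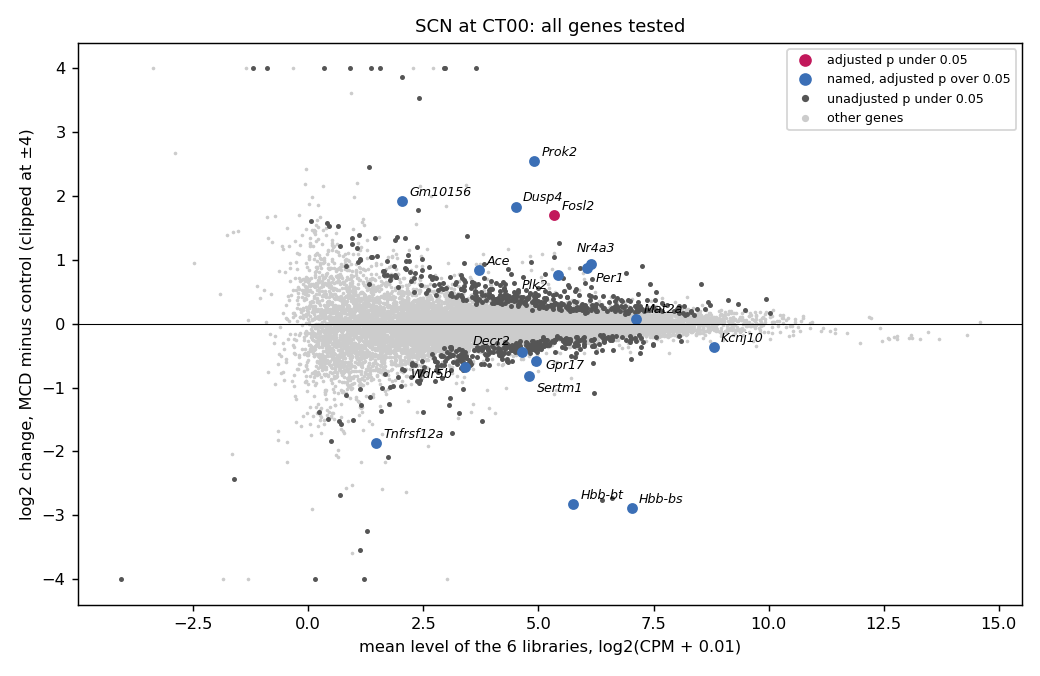
Log2 change of MCD against control in SCN at CT0 (vertical axis, clipped at ±4) against the mean level of the 6 libraries on a log2 scale (horizontal axis), 1 point per gene tested. Fosl2 is the 1 gene with an edgeR adjusted p under 0.05; the other named points did not pass in edgeR's main model, and most of the 15759 genes lie in a band around 0.

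Fosl2 was also the gene whose diet effect differed between CT0 and the rest of the day. Its diet effect at CT0 exceeded the mean diet effect at the other 5 times by 1.75 ± 0.29 (SE) on the log2 scale (edgeR adjusted p = 0.0211), and it was again the 1 gene called by this test of the difference, 0.00635% of 15759, with 673 genes at an unadjusted p under 0.05. On the control diet the mean level over the day was 19.1, 57.0, 37.9, 10.5, 8.84 and 13.0 CPM from CT0 to CT20 (3 libraries each). On MCD it was 62.4, 46.9, 27.1, 12.6, 10.9 and 12.6 CPM at the same times. The control diet thus had its highest mean at CT4 and the MCD diet at CT0, and the MCD mean at CT0, 62.4 ± 2.32 CPM (SD, n = 3), lay within the spread of the control mean at CT4, 57.0 ± 11.2 CPM (SD, n = 3). The diet effect of Fosl2 at CT4 to CT20 was -0.28, -0.47, 0.27, 0.29 and -0.05 on the log2 scale, and none of these passed in edgeR. The call on the difference was less firm than that at CT0: without 5 of the 6 CT0 libraries, taken out 1 at a time, the edgeR adjusted p was between 0.063 and 0.458, and without control replicate 3 it was 0.0251.

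The counts per exon bin come from the same libraries that picked Fosl2, so they describe the change along the gene and add no support. The share of such bins over all genes was not taken. Of the 6 Fosl2 bins with at least 60 counts in the 6 libraries together, 4 had all MCD libraries above all control libraries, and the ratio of the group means was 1.47 to 2.04 on the log2 scale in every one of the 6. The bin with the most counts stood at 9.99, 8.23 and 10.5 CPM on control and at 29.6, 29.9 and 35.3 CPM on MCD. No shift of counts between the bins of Fosl2 passed the test of exon usage (edgeR adjusted p = 1.00).

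Under the rule used for naming genes, the list was filled to 8 genes in each direction by the lowest unadjusted p among genes with a mean of at least 1 CPM, and none of the 15 genes after Fosl2 passed in edgeR's main model of all SCN libraries. With a replicate block edgeR called Dusp4, Per1 and Prok2 too (adjusted p = 0.0164, 0.0361 and 0.0324). On the higher side DESeq2 called Dusp4, Per1, Nr4a3, Plk2, Ace and Gm10156 besides Fosl2 (adjusted p from 2.53e-05 for Dusp4 to 0.0228 for Ace), and limma called Dusp4 and Prok2. The lowest adjusted p values of DESeq2 went to other genes, E130102H24Rik, Gm20431 and Gm8225, with extreme log2 changes of 21.4, 25.7 and 23.8. In edgeR's main model these genes had log2 changes of 8.43, 11.9 and 10.2, and none of them passed. Dusp4, a nuclear phosphatase that switches off MAP kinases, was at 10.2, 6.41 and 12.4 CPM on control and at 35.3, 39.0 and 33.2 CPM on MCD. The groups did not overlap. The log2 change was 1.83 ± 0.34 (SE), with an edgeR adjusted p of 0.0602. Per1, a repressor of the clock loop, was at 49.3, 43.2 and 47.6 CPM on control and at 87.4, 69.0 and 101 CPM on MCD. All MCD libraries were above the controls, with the female highest. Its log2 change was 0.88 ± 0.17 (SE), also at an edgeR adjusted p of 0.0602.

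Nr4a3, an orphan nuclear receptor of the immediate-early class, was at 55.8, 40.7 and 48.8 CPM on control and at 93.2, 112 and 74.4 CPM on MCD. The groups were again apart (log2 change 0.93 ± 0.19, SE, edgeR adjusted p = 0.145). Prok2, which encodes a secreted peptide by which the SCN signals daytime to other brain areas, had the largest log2 change of the 8, 2.54 ± 0.53 (SE), from 7.37, 3.59 and 15.3 CPM to 36.6, 31.2 and 85.7 CPM. Its edgeR adjusted p was 0.185; the female of each diet was the highest of its group, and the groups did not overlap. An antisense gene, Gm26748, overlaps Prok2, and whether the counting used the strand is not given in the sources used here. The same holds for Ace (overlapped by Gm11651), Gpr17 (Lims2), Wdr5b (Fam162a) and Mat2a (Particl). Of the genes given further on, it also holds for Bhlhe41, Rora, Cry2, Ciart, Nr1d1 (overlapped by Thra), Arntl, Junb (Prdx2), Dusp1 (Gm8225 and Ergic1), Avpr1a and Rgs16. Six6, Ahcy, Ppp1r15a, Dnajb11, Rbm3, Olig1, Slc7a10 and Aqp4 are overlapped in the same way. The remaining 3 genes were Plk2, a kinase induced by synaptic activity (log2 change 0.77 ± 0.17), Ace, which encodes angiotensin-converting enzyme (0.84 ± 0.19), and the predicted gene Gm10156 (1.92 ± 0.42), all at an edgeR adjusted p of 0.185. Gm10156 was at no more than 8.32 CPM in any library.

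None of the 8 genes on the lower side passed in edgeR, while DESeq2 called 6 of them: Tnfrsf12a (adjusted p = 0.00214), Gpr17 and Wdr5b (0.0286 each), Hbb-bt and Hbb-bs (0.0340 each) and Sertm1 (0.0412). Tnfrsf12a, the receptor of the cytokine TWEAK, was at 3.65, 4.17 and 5.15 CPM on control and at 1.56, 0.602 and 1.39 CPM on MCD (log2 change -1.87 ± 0.41, SE, edgeR adjusted p = 0.185). Gpr17, a receptor of maturing oligodendrocytes, was at 39.5, 40.7 and 31.0 CPM on control and at 26.9, 25.0 and 21.9 CPM on MCD (-0.59 ± 0.14, SE, edgeR adjusted p = 0.185). Kcnj10, the inward rectifier potassium channel of glia, was at 482, 494 and 540 CPM on control and at 405, 414 and 350 CPM on MCD (-0.37 ± 0.10, SE, edgeR adjusted p = 0.581). In all 3 the groups did not overlap. Wdr5b, Sertm1 and Decr2 (a peroxisomal enzyme of fatty acid oxidation) had log2 changes of -0.68, -0.82 and -0.45, and the haemoglobin genes Hbb-bt and Hbb-bs are described with the red cell transcripts. The plot of levels by library shows these 16 genes.

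**Figure D2:**
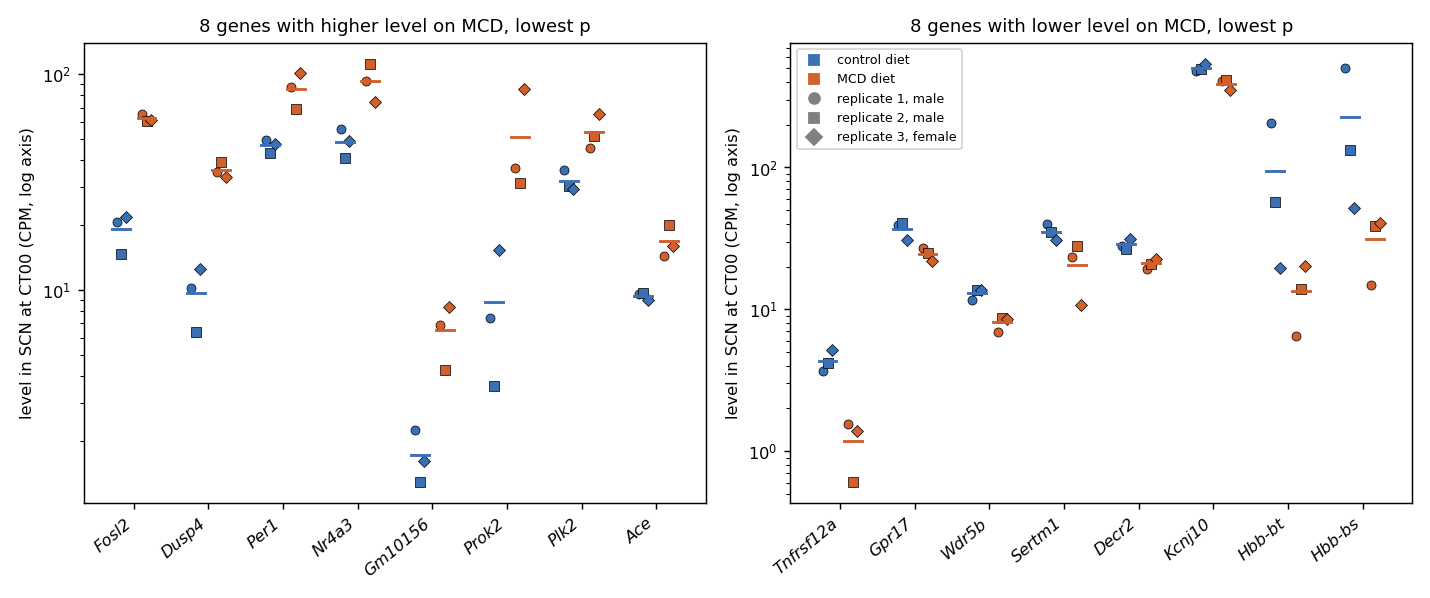
Level in each of the 6 SCN libraries at CT0 (CPM, log axis) of the 8 genes of lowest p with a higher level on MCD (left) and the 8 with a lower level (right); blue is the control diet, orange MCD, the marker shape gives the replicate and the bar the group mean. Fosl2, Dusp4 and Per1 show separate groups, while Hbb-bs runs from 502 CPM in control replicate 1 to 14.7 CPM in MCD replicate 1.

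The profiles over the day differed among the genes of lowest p. On the control diet, Per1, Prok2, Dusp4 and Sik1, picked after their values were seen, had their highest mean at CT4 or CT8, and their MCD means at CT0 lay between the control means of CT0 and of that later time. Per1 had control means of 46.7, 128, 137, 63.9, 30.2 and 31.3 CPM from CT0 to CT20 and MCD means of 85.7, 146, 124, 55.0, 30.7 and 37.6 CPM. Its MCD mean at CT0, 85.7 ± 15.9 CPM (SD, n = 3), lay between the control means at CT0 and CT4. Prok2 had control means of 8.75, 78.2, 42.3, 6.02, 0.788 and 0.627 CPM and MCD means of 51.2, 103, 40.1, 4.33, 0.91 and 1.51 CPM. Here too the MCD mean at CT0, 51.2 ± 30.0 CPM (SD, n = 3), was between those 2 control means, with a wide spread set by the female. Dusp4 had control means of 9.68, 42.8, 45.8, 11.3, 3.27 and 4.42 CPM and MCD means of 35.8, 56.3, 47.1, 8.43, 3.68 and 3.99 CPM. Sik1, a kinase that restrains CREB signalling, was at 87.6, 171, 148, 57.4, 55.1 and 55.2 CPM on control and at 150, 162, 129, 52.2, 53.7 and 67.3 CPM on MCD. At CT16 and CT20 the means of these 4 genes were below those at CT4 on both diets. Nr4a3 too had its highest control mean at CT8, 64.3 CPM, beside 48.4 CPM at CT0 and 39.9 CPM at CT4. It differed from the 4 genes in its MCD mean at CT0, 93.2 CPM, which was above the control means of all 6 times. Ace was also above them all, with an MCD mean of 16.8 CPM at CT0 and a highest control mean of 11.8 CPM at CT20, as was Fosl2. Gm10156 had its highest control mean, 7.31 CPM, at CT12, and 6.49 CPM on MCD at CT0. Plk2 was at 54.1 CPM on MCD at CT0, between its control means of 31.9 CPM at CT0 and 81.0 CPM at CT8. The test of the difference from the other times was passed by none of these genes except Fosl2 in edgeR's main model (adjusted p = 0.270 for Dusp4, 0.319 for Per1, 0.654 for Prok2 and 0.860 for Nr4a3), while DESeq2 called Dusp4, Per1 and Sik1 (adjusted p = 0.000340, 0.00595 and 0.0308).

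**Figure D3:**
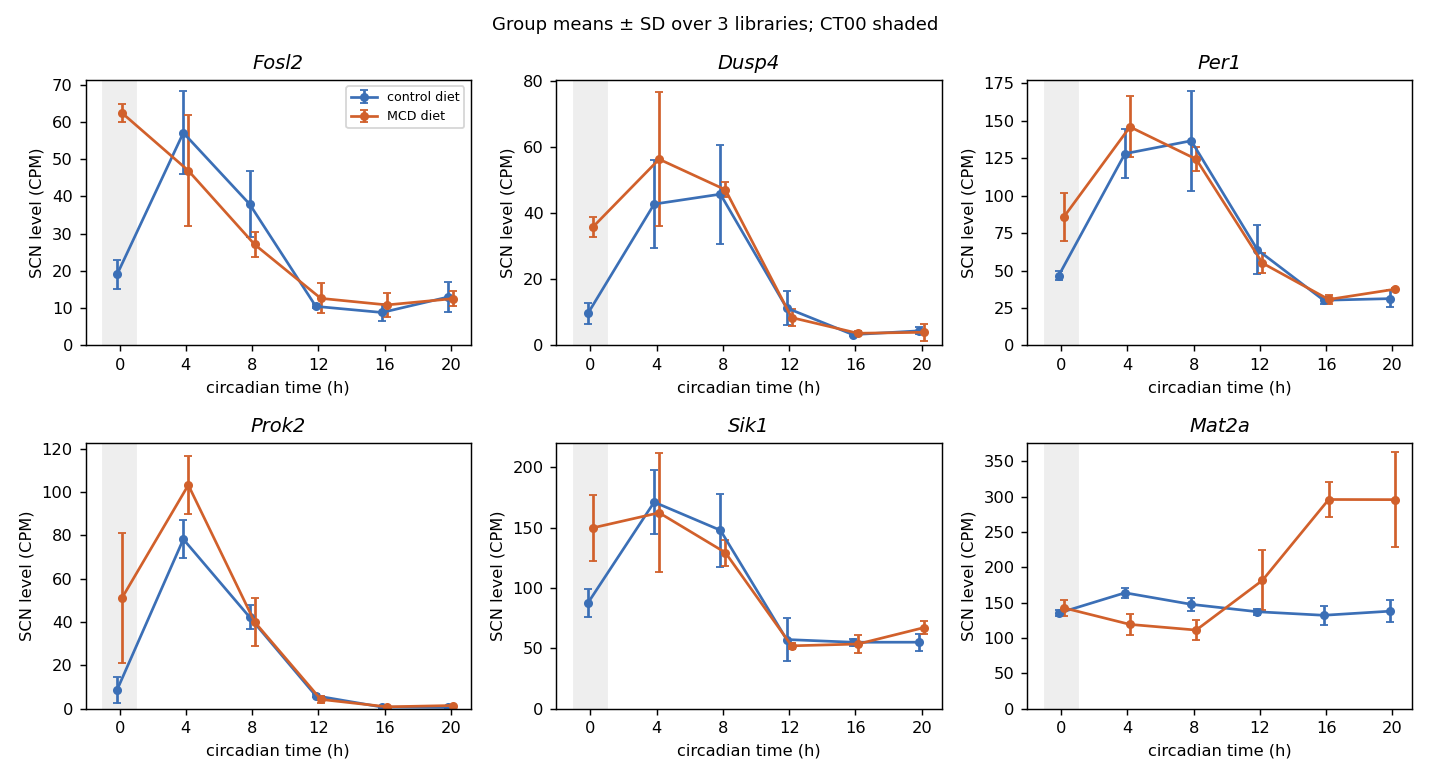
Mean level ± SD over 3 SCN libraries (CPM) at the 6 circadian times (h) on the control diet (blue) and MCD (orange), with CT0 shaded. Fosl2 is at 62.4 CPM on MCD and 19.1 CPM on control at CT0, Dusp4, Per1, Prok2 and Sik1 have higher MCD means at CT0 without passing in edgeR's main model, and Mat2a is at 143 and 135 CPM at CT0 and apart at CT16 and CT20.

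The promoter windows of 5 of these genes are shown because both the clock and CREB act on short DNA motifs near the start site. They were taken from RefSeq (build GRCm38.p6, 250 bases before to 50 after the start), and the genes and the 3 motifs were chosen after the values were seen. Capitals mark a match on either strand to the cyclic AMP response element TGACGTCA, to its half-site TGACG (which the full element contains) or to the E-box CACGTG. Each window is written 5′ to 3′ on the gene's strand: chr5:32136222-32136521 on the plus strand for Fosl2, chr11:69098699-69098998 on the plus strand for 1 of the 2 Per1 starts, chr4:48045055-48045354 on the plus strand for Nr4a3, chr6:99726343-99726642 on the minus strand for Prok2 and chr13:110394794-110395093 on the plus strand for Plk2.
Fosl2: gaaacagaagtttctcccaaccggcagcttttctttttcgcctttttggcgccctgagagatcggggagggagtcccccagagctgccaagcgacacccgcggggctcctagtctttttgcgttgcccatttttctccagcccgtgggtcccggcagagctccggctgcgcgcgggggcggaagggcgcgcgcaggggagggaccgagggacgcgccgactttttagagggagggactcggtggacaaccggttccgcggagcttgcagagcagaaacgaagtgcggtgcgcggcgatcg
Per1: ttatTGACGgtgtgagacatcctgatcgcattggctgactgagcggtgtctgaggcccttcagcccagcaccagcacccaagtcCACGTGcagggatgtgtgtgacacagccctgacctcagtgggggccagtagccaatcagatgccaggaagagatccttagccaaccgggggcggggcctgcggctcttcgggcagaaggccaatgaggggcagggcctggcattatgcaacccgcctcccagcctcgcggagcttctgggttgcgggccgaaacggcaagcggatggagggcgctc
Nr4a3: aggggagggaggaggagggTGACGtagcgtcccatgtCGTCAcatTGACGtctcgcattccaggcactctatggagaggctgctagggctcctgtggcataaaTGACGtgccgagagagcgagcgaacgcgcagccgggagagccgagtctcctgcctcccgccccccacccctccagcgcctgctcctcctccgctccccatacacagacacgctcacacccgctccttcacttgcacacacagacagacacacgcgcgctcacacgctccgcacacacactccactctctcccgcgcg
Prok2: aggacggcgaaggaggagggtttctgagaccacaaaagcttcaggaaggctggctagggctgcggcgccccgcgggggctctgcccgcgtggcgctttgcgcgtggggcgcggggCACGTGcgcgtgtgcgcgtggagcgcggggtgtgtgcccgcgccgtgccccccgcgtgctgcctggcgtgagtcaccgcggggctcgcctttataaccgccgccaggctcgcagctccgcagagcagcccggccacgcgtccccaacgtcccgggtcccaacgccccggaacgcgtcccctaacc
Plk2: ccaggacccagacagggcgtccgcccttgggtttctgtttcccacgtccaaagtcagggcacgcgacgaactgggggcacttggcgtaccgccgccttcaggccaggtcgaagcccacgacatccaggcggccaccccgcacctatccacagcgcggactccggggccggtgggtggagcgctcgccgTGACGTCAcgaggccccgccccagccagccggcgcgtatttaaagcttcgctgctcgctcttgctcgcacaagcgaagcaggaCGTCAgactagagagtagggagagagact
The full element was found in the window of Plk2, 3 and 4 half-site matches in those of Plk2 and Nr4a3, 1 half-site and 1 E-box in that of Per1, and 1 E-box in that of Prok2. The Fosl2 window held none of the 3, which says only that these letters are not in this window. Of the 8 genes on the higher side, 6 had a window (8 windows, since a gene can have several starts), and 4 of the 8 windows held the half-site. These were the 2 windows of Per1 and those of Nr4a3 and Plk2. The windows of the gene that is not shown held none of the motifs. Among all 32851 RefSeq windows, 20.8% held the half-site, 1.79% the full element and 7.15% the E-box, and of the 7 windows of genes on the lower side 1 held the half-site. The full element was in 1 of the 8 windows of the higher side and 1 of the 7 of the lower side (12.5% and 14.3%), and the E-box in 2 of 8 and 0 of 7. These matches describe the sequence and were not tested.

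The core clock list held 24 measured genes, and none passed in edgeR's main model of all SCN libraries. Per1 was called by edgeR with RLE factors (adjusted p = 0.0498), with a replicate block (0.0361) and in the 6 libraries alone (0.0147), and Rora in the 6 libraries alone (0.0226). DESeq2 called Per1 (adjusted p = 0.000277) and Bhlhe41 (0.0402). An unadjusted p under 0.05 with a higher value on MCD was found for 11 of the 24, against 2.63% of all genes, and with a lower value for 0, against 2.11% of all genes. In 12 members all MCD libraries were above all control libraries and in 1 they were below, while over all genes these shares were 5.34% and 5.33%. The median log2 change of the list was 0.25. This list and the others were written with earlier results of these data known, so their counts are a description.

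Within the clock list the members of the Period, Cryptochrome, ROR, REV-ERB and PAR-domain families had positive values, and 22 of the 24 genes did in all. After Per1 the lowest p belonged to Bhlhe41, which encodes the repressor DEC2, at 83.2, 73.8 and 93.2 CPM on control and at 110, 106 and 122 CPM on MCD (log2 change 0.44 ± 0.11, SE, edgeR adjusted p = 0.278). Rora, which encodes an activator of Bmal1 transcription, was at 149, 120 and 136 CPM on control and at 210, 202 and 209 CPM on MCD (0.62 ± 0.17, SE, edgeR adjusted p = 0.500). In both genes the groups were apart. Nr1d2, which encodes the repressor REV-ERB beta, overlapped between the diets, at 110, 99.9 and 127 CPM and 147, 156 and 125 CPM (0.35 ± 0.12, SE, edgeR adjusted p = 0.830). The following clock genes were picked after their values were seen. Per2 was at 18.6, 18.6 and 21.0 CPM on control and at 30.1, 22.5 and 31.3 CPM on MCD, and Cry2 at 51.4, 57.3 and 56.8 CPM and 66.4, 67.6 and 66.3 CPM. Their log2 changes were 0.53 and 0.28. Hlf and Ciart had 0.34 and 0.66, and Cry1 and Nr1d1 had 0.25 and 0.22, each with separate groups. Without MCD replicate 3 the value was 0.32 for Ciart, 0.16 for Cry1 and 0.05 for Nr1d1. The activators of the loop had values close to 0: Arntl, the gene of BMAL1, was at 53.4, 49.9 and 50.0 CPM on control and at 49.4, 47.9 and 47.7 CPM on MCD (log2 change -0.08 ± 0.15, SE), and Clock had 0.08 ± 0.18 (SE) with overlapping groups. Arntl was the 1 clock gene whose MCD libraries were all below the controls.

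Immediate-early genes and their feedback phosphatases had a median log2 change of 0.30 over 27 measured members. Besides Fosl2, which passed, 8 members had a higher value at an unadjusted p under 0.05, so that the count was 9 higher and 1 lower, against 2.63% and 2.11% of all genes. The MCD libraries were all above the controls in 10 members and all below in 3, against 5.34% and 5.33% of all genes. The summed level of the list was 592.5, 542.2 and 575.1 CPM on control and at 818.9, 841.5 and 844.6 CPM on MCD, with no overlap. The list median was 0.16 without MCD replicate 3 and 0.40 without MCD replicate 2. Sik1 was at 101, 79.1 and 83.0 CPM on control and at 146, 124 and 179 CPM on MCD (log2 change 0.79 ± 0.18, SE, edgeR adjusted p = 0.185). DESeq2 called it (adjusted p = 0.00744), as did edgeR in the 6 libraries alone with a replicate block (0.0420).

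The members did not share 1 direction. The further immediate-early genes given here were picked after their values were seen, and none passed in edgeR's main model of all SCN libraries. Junb (adjusted p = 0.0294) and Gem (0.0340) were called by edgeR in the 6 libraries alone. Junb, a partner of FRA-2 in AP-1, was at 17.2, 18.6 and 22.9 CPM on control and at 28.0, 32.4 and 53.2 CPM on MCD, and Gem, a small GTPase induced by depolarisation, at 6.36, 4.14 and 7.77 CPM and 12.5, 13.8 and 21.1 CPM. Both had separate groups with the MCD female highest, and log2 changes of 0.96 and 1.37. Without MCD replicate 3 Junb had 0.56, Btg2 0.22 and Npas4 -0.99. Dusp1, Nr4a1 and Btg2 had 0.77, 0.87 and 0.35, all with separate groups. Fos, the best known gene of the class, was at 33.0, 25.1 and 33.7 CPM on control and at 50.0, 46.2 and 37.3 CPM on MCD (0.56 ± 0.29, SE). Npas4, a factor induced by calcium entry in neurons, lay the other way, at 18.1, 18.6 and 25.8 CPM on control and at 9.10, 8.47 and 2.02 CPM on MCD (log2 change -1.52 ± 0.58, SE, edgeR adjusted p = 0.933). Dusp6 and Ier5 were also below the controls in all MCD libraries, with log2 changes of -0.56 and -0.17.

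Peptides and receptors of SCN neurons gave a mixed picture. Of the 25 measured, 4 were higher and 2 lower at an unadjusted p under 0.05, against 2.63% and 2.11% of all genes, and the median log2 change was 0.09. None passed in edgeR's main model of all SCN libraries, while Prok2 was called by limma (adjusted p = 0.00430) and by edgeR with a replicate block (0.0324) and in the 6 libraries alone (0.0147). After Prok2 came Vgf, a secreted precursor of neuropeptides, at 283, 296 and 300 CPM on control and at 432, 363 and 544 CPM on MCD (log2 change 0.62 ± 0.18, SE, edgeR adjusted p = 0.658), and Pcsk1, the convertase that cuts such precursors, at 41.9, 22.4 and 39.8 CPM and 62.3, 47.8 and 62.5 CPM (0.72 ± 0.26, SE, edgeR adjusted p = 0.874). Their groups were apart. Without MCD replicate 3 Vgf had 0.37, and without control replicate 2 Pcsk1 had 0.47. Vip, the peptide that couples SCN neurons, was at 960, 702 and 900 CPM on control and at 952, 934 and 1486 CPM on MCD, so that the groups overlapped and the female on MCD alone stood high. The 2 lower members were Avpr1a, a vasopressin receptor (log2 change -0.40, and -0.25 without MCD replicate 1), and Nmu, which was at 0 CPM in 5 of the 6 libraries. Among 16 factors and markers of SCN identity 3 were higher (Rora, Rgs16 and Vax1) and 1 lower (Rasd1) at an unadjusted p under 0.05, with a median of 0.11. Receptors and transporters of GABA and glutamate had a median of 0.12 over 36 genes, and none passed in edgeR. The 1 member with a lower value at an unadjusted p under 0.05 was Slc17a7, a glutamate transporter of cortical neurons, at 4.87, 6.55 and 1.53 CPM on control and at 0.908, 0.103 and 0.515 CPM on MCD.

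The genes of methionine and choline use showed no call in edgeR at CT0. In the methyl cycle and polyamine list 0 of 32 members had an unadjusted p under 0.05 in either direction, and the median log2 change was -0.03. Mat2a, which encodes the S-adenosylmethionine synthetase of most tissues, was at 131, 138 and 136 CPM on control and at 145, 152 and 131 CPM on MCD, with overlapping groups (log2 change 0.08 ± 0.14, SE, edgeR adjusted p = 1.00). At the later times its diet effect was -0.46, -0.41, 0.40, 1.16 and 1.10 on the log2 scale from CT4 to CT20, and CT16 and CT20 passed in edgeR (adjusted p = 5.05e-05 and 0.000167). The difference between its effect at CT0 and the mean of the other times, -0.28 ± 0.15 (SE), did not pass (edgeR adjusted p = 1.00). That mean joins effects of opposite sign, so this test cannot tell whether the effect at CT0 is like that at any single time. The lowest p of the list belonged to Ahcy, the hydrolase that removes S-adenosylhomocysteine (log2 change 0.19), and Mettl16, the RNA methyltransferase that acts on the Mat2a transcript (-0.19). Choline and phosphatidylcholine genes had 1 of 27 members at an unadjusted p under 0.05, Gpcpd1, with a log2 change of 0.29, and a median of -0.02. Among 36 genes of RNA, DNA and histone methylation there were 0 such members. Over all genes 2.63% were higher and 2.11% lower at this p, so that 1 of 27 is near the background and no result about the list.

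Stress and lipid lists had 0 to 6 members at an unadjusted p under 0.05, to be read beside 2.63% (higher) and 2.11% (lower) of all genes, and none of their members passed in edgeR's main model of all SCN libraries. A share near these is no result about a list. For amino acid stress these were 2 of 30, both higher: Ppp1r15a, a phosphatase subunit that restores translation (log2 change 0.45), and Sesn2, a leucine sensor (0.35). Without MCD replicate 3 these were 0.28 and 0.08. The unfolded protein response had 0 higher and 2 lower of 20, Creld2 (-0.34) and Dnajb11 (-0.23), and the glucocorticoid and fasting list had 0 of 23. The heat shock and cold-inducible list had 5 positive and 16 negative values of 21, with 2 higher and 3 lower at an unadjusted p under 0.05. The MCD libraries were all above the controls in 2 members and all below in 5, against 5.34% and 5.33% of all genes. Rbm3, an RNA-binding protein induced by cold, was at 23.0, 25.1 and 31.3 CPM on control and at 43.2, 42.5 and 77.8 CPM on MCD (log2 change 1.05 ± 0.29, SE, edgeR adjusted p = 0.504), and Cirbp, its relative, had 0.46. Without MCD replicate 3 these were 0.61 and 0.19. In the 6 libraries alone edgeR called Rbm3 (adjusted p = 0.00893). The chaperone genes Dnajb1, Hspb1 and Stip1 were the 3 on the lower side, with -0.42, -0.93 and -0.27, and Dnajb1 had -0.23 without MCD replicate 3. Cholesterol synthesis and uptake had 0 higher and 6 lower of 24, with a median of -0.13 and 22 negative values. Tm7sf2, a sterol reductase, was at 12.0, 11.5 and 11.4 CPM on control and at 8.07, 7.45 and 8.24 CPM on MCD (log2 change -0.55 ± 0.24, SE, edgeR adjusted p = 1.00). Interferon and MHC genes had 0 of 24, and all 15 mitochondrially encoded genes had negative values with a median of -0.23 and 0 at an unadjusted p under 0.05.

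**Figure D4:**
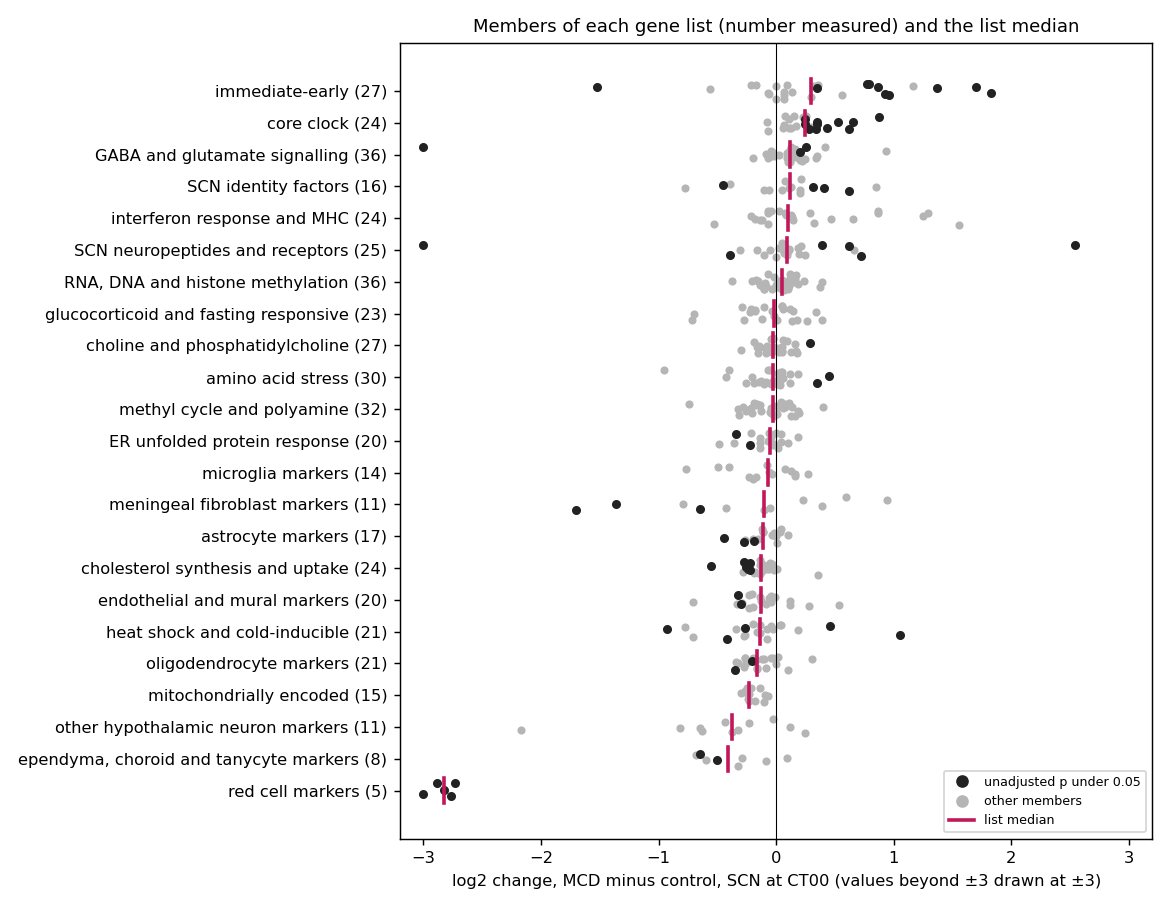
Log2 change of MCD against control in SCN at CT0 (horizontal axis, values beyond ±3 drawn at ±3) of every measured member of the 23 gene lists; black points have an unadjusted p under 0.05, and the red line is the list median. The immediate-early and core clock medians are 0.30 and 0.25, and the red cell median is -2.83.

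Markers of the other cell types in the cut tissue were mostly below 0 on the log2 scale. Counts of members here are at an unadjusted p under 0.05, where 2.63% of all genes were higher and 2.11% lower, and none of these markers passed in edgeR's main model. Oligodendrocyte markers had a median of -0.16, with 0 higher and 2 lower of 21 (Olig2 and Olig1) and a summed level of 2201 to 2581 CPM on control and at 1866 to 2257 CPM on MCD. Astrocyte markers had a median of -0.11, with 3 lower of 17 (Slc7a10, Aqp4 and Gja1) and sums of 8087 to 9605 and 7954 to 9196 CPM. Endothelial and mural markers had -0.13, with 2 lower of 20 and sums of 428 to 489.4 and 351.6 to 430.7 CPM. Meningeal fibroblast markers had -0.10, with 3 lower of 11, the collagens Col1a2, Col1a1 and Col3a1, and sums of 145.5 to 165.3 and 142.3 to 161.8 CPM. Col1a1 was called by edgeR in the 6 libraries alone with a replicate block (adjusted p = 0.0420). Microglia markers had -0.07 over 14 genes, markers of other hypothalamic neurons -0.37 over the 11 measured of 18, and those of ependyma, choroid and tanycytes -0.41 over the 8 measured of 13, with 0, 0 and 2 members at an unadjusted p under 0.05. The part of these markers in the clock and immediate-early values was not tested.

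Red cell transcripts differed widely between single libraries. Hbb-bs, a beta globin, was at 502, 133 and 51.7 CPM on control and at 14.7, 38.6 and 40.7 CPM on MCD (log2 change -2.88 ± 0.80, SE, edgeR adjusted p = 0.604). Its diet effect was also negative at the later times, -0.729, -1.335, -0.743, -2.47 and -0.545 on the log2 scale from CT4 to CT20. None of these passed in edgeR. All 5 members had a lower value at an unadjusted p under 0.05, against 2.11% of all genes. None passed in edgeR, while DESeq2 called Hbb-bt and Hbb-bs (adjusted p = 0.0340 each). Their summed level was 1423, 366.4 and 127.8 CPM on control and at 43.61, 103.3 and 128.4 CPM on MCD. Control replicate 1 stood apart from the other 2 controls, and control replicate 3 and MCD replicate 3 were about equal. Without control replicate 1 the median of the list was -1.36 in place of -2.83. Fosl2 kept its call without that library (log2 change 1.74, edgeR adjusted p = 0.0350).

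In the liver at the same time 2550 of 20249 genes, 12.6%, passed the edgeR test for diet. The liver table was normalized on its own and its levels are not set beside those of SCN. Fosl2 had a liver log2 change of 0.62 ± 0.25 (SE) that did not pass (edgeR adjusted p = 0.111). Dusp4 had 1.93 ± 0.39 (SE, edgeR adjusted p = 0.00224) in liver, beside 1.83 in SCN. Per1 had 0.28 ± 0.58 (SE, edgeR adjusted p = 0.816) and Tnfrsf12a 2.75 ± 0.59 (SE, edgeR adjusted p = 0.00342), the latter of opposite sign to its value in SCN. Mat2a had 1.72 ± 0.18 (SE, edgeR adjusted p = 2.92e-06). The difference between tissues was not tested, and Prok2 and Sertm1 were not among the liver genes tested. At the other times in SCN the edgeR test called 7 genes at CT4, 0 at CT8 and CT12, and 1 each at CT16 and CT20, all higher on MCD, with 859, 282, 328, 311 and 1016 genes at an unadjusted p under 0.05.

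Exon usage, the share of a gene's counts that falls in each of its exon bins, differed by diet at CT0 in 8 of 15275 genes, 0.0524%, by edgeR's gene-level Simes test, and 454 genes had an unadjusted p under 0.05. The count was 1 with a replicate block, 2 with at least 10 counts in each bin and library, 4 in the 6 libraries alone and 6 to 29 with a library left out, the 29 without control replicate 1. Those of lowest p included Rps24, Rps26, Hnrnpk, Rpl11 and Rps4x, and of these 5 all but Hnrnpk encode ribosomal proteins. The calls of these 5 genes rested on few libraries. The leading Rps24 bin was at 51.6 CPM in MCD replicate 3 and at no more than 0.867 CPM in the other 5. The leading Rps26 bin was at 21.8 and 30.4 CPM in MCD replicates 1 and 2 and at no more than 0.343 CPM in the other 4 libraries, including MCD replicate 3. The leading Rpl11 bin was at 29.5 and 19.2 CPM in control replicates 1 and 3 and at 0.203 CPM in control replicate 2. In 4 of the leading bins of these 5 genes the groups overlapped, and that of Rps26 was the exception. Ribosomal protein genes have near-identical copies in the genome, and how reads that fit several copies were counted is not given in the sources used here. No shift between bins passed the Simes test for Dusp4, Per1, Nr4a3 or Prok2. Of their bins with at least 60 counts, the MCD libraries were all above the controls in 4 of 4 for Dusp4 and 6 of 7 for Prok2. For Per1 this held in 17 of 28 and for Nr4a3 in 1 of 10. These bins come from the libraries that picked the genes, and the share over all bins was not taken.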

How the data were processed

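Libraries of polyadenylated RNA were made with a stranded kit, per the labels' protocols. Raw counts of reads, unnormalized, were deposited by the authors for genes (1 matrix for each tissue) and for exon bins (1 file for each library), per the file headers. The submitters' processing notes name Trimmomatic, HISAT2, StringTie, DESeq2 and build GRCm39, with no role for each; the sources used here do not give the annotation or the strand setting of the counting. The tables give 2 SCN columns at CT8 the same name, and these were used as replicates of their group without a number.

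Genes were tested with edgeR 4.0.16 (R 4.3.3): TMM scaling, filterByExpr with a minimum count of 10 (which kept all 15759 SCN genes), robust quasi-likelihood F test. One model held the 36 SCN libraries in 12 groups of diet and time with a term for sex, so that all groups shared 1 estimate of the spread. The contrast was MCD minus control at CT0, and a second contrast subtracted the mean diet effect at the other 5 times. The liver table was fitted separately. Exon bins were tested with diffSpliceDGE on the trended dispersion. The threshold was a Benjamini-Hochberg adjusted p of 0.05, and SE is the absolute log2 change over the square root of F. Alternatives were RLE factors, library totals, no filter, no sex term, a replicate block, each replicate left out, the 6 libraries alone, limma 3.58.1 and DESeq2 1.42.0. The scripts were tested on simulated counts.

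Named genes were those called with a mean of at least 1 CPM (up to 12 a direction), filled to 8 a direction by the lowest unadjusted p, plus Mat2a, up to 4 genes a list by lowest p, and for exon usage the 6 called genes of lowest p (some genes that the rule names are not reported here); others are said to have been picked after their values were seen. The comparison, the genes and the lists were chosen with earlier results of these data known. The p-values measure the spread between these mice only, 3 a group. Genes on the other strand were found through GENCODE M21 (build GRCm38) by Ensembl ID, and no coordinate of the authors' build was used.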

Additional observations from a re-analysis of the deposited data

Results flagged for a closer look

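The diet effect on Fosl2 in SCN differed between circadian times. At CT0 it exceeded the mean diet effect at the other 5 times by 1.75 on the log2 scale, with a SE of 0.29 and an edgeR adjusted p of 0.0211. In all 3 MCD libraries at CT0 the level was above that of all 3 control libraries at that time. The adjusted p of this difference lay between 0.0251 and 0.458 when the 6 CT0 libraries were left out in turn.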

How the results depend on the processing

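The direction of the Fosl2 change at CT0 was the same in all fits run. The edgeR count of 1 gene called for diet at CT0 was also found with library totals and without the sex term; it was 3 with RLE factors (Fosl2, Dusp4 and Per1), 3 with limma (Fosl2, Prok2 and Dusp4), 29 with DESeq2, 12 with the 6 libraries of CT0 alone and 0 to 3 with a library left out. For the difference from the other times the count of 1 became 15 with DESeq2 and 0 to 2 with a library left out, and was 1 in the remaining fits (the 6 libraries alone give no such value). The low-count filter removed no gene, so the fit without it is the same fit and tests nothing. With the 6 libraries alone, Gem, Rbm3, Rora and Junb were among the genes called beside Fosl2, Dusp4, Per1 and Prok2. The rest were Gstm3, Rasl11b and Pcdha7, higher on MCD, and Bcas1, lower on MCD (log2 change -0.609, edgeR adjusted p = 0.0187).

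The replicate block called 4 genes (Fosl2, Dusp4, Per1 and Prok2), 16 in the 6 libraries alone, and 1 gene for exon usage. The deviations of same-numbered libraries correlated at -0.0154, -0.0531 and -0.0442, so the numbers were not taken to pair mice, and the block changed no other count of calls by over 1.5 times. Exon usage was called in 8 genes by the Simes test and in 26 by the gene-level F test, 4 in the 6 libraries alone, 2 with at least 10 counts in each bin and library, and 6 to 29 with a library left out. The 29 came without control replicate 1. Causes were not tested.

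With a library left out, the list medians ran from 0.16 to 0.40 for immediate-early genes, 0.18 to 0.28 for the core clock, -0.0475 to -0.00626 for choline, -0.182 to -0.0878 for heat shock, -0.153 to 0.00559 for the unfolded protein response, -0.261 to -0.0438 for endothelial, -0.29 to -0.11 for oligodendrocyte, -0.309 to 0.0445 for microglia and -3.39 to -1.36 for red cell markers. They ran from 0.0025 to 0.151 for SCN neuropeptides, 0.036 to 0.178 for SCN identity, 0.071 to 0.158 for GABA and glutamate, 0.00867 to 0.25 for interferon, -0.0769 to -0.0198 for the methyl cycle, 0.00747 to 0.0828 for methylation, -0.0676 to 0.00704 for amino acid stress, -0.115 to 0.0426 for glucocorticoid, -0.175 to -0.0762 for cholesterol, -0.285 to -0.175 for mitochondrial genes, -0.163 to -0.0346 for astrocyte, -0.148 to -0.035 for meningeal, -0.561 to -0.195 for ependymal and -0.594 to -0.163 for other hypothalamic markers. The other alternatives moved no list median by more than its spread between replicates. No called value changed sign, and of the uncalled genes named Clock, Avp and Six6 did so when a library was left out. With 3 mice a group and 27.5 M counts in the shallowest library, the depth at low levels and the number of mice may both limit what could be called. This was not tested.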
